A study of Mus musculus with 16 samples.

Results

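The 10 mouse genes described here, H2-K1, H2-D1, B2m, Tap1, Tap2, Tapbp, Nlrc5, Erap1, Calr, and Pdia3, were taken by name from the 24421 rows of the deposited count table, and all 10 were among the 14565 genes that passed the filter on low counts. They act in the loading of peptides onto MHC class I molecules. The values that follow come from RNA-Seq of CD11b+ brain cells of C57BL/6J mice (female mice per the Methods), with 1 library per mouse. CON mice (n = 4) ate standard chow after weaning. MAL mice (n = 5) ate an isocaloric diet low in protein and fat for 1 month, and MAL-BG mice (n = 7) ate that low diet and were also exposed to E. coli and Bacteroidales by gavage. The other groups were gavaged with buffer per the Methods. No group on standard chow with the bacteria was analysed here, so MAL-BG versus MAL asks about the exposure on the low diet, MAL versus CON about the diet, and MAL-BG versus CON about both together. The MAL-BG comparisons share the same MAL-BG libraries. The labels name cortical tissue as the source and the Methods name whole cerebra.

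CD11b is an integrin on the surface of microglia and other myeloid cells. Beads with an antibody to it enrich such cells and do not give a pure cell type. The 16 microglial marker genes summed to 22527 to 35092 CPM in CON libraries, 22535 to 37731 CPM in MAL libraries, and 45422 to 63588 CPM in MAL-BG libraries, and no marker of the list was at 0 in a group. In MAL-BG against CON, 10 of the 16 were called higher (TMM, adjusted p and fold thresholds) and 0 lower. Of other marker lists, 6 of 10 lymphocyte and 13 of 15 neutrophil genes tested were called higher. In the same comparison, 10 of 10 choroid plexus, 9 of 9 ependyma, 10 of 11 neuron, and 4 of 9 astrocyte genes were called lower. Of 13 monocyte genes, 0 were called higher and 5 lower, and of 12 endothelium genes, 4 were called higher and 0 lower. Of 10 border macrophage genes, 0 were called higher and 1 lower, and of 10 oligodendrocyte genes, 3 higher and 1 lower. Beside these counts, 11.4% of all genes tested were called higher and 21.7% lower in this comparison. Summed lymphocyte markers ranged from 50.8 to 84.3 CPM in CON, 56.2 to 75.6 CPM in MAL, and 118 to 246 CPM in MAL-BG. Summed neutrophil markers ranged from 494 to 1234 CPM in CON, 523 to 1106 CPM in MAL, and 608 to 15035 CPM in MAL-BG. Their MAL-BG median was 1129 CPM, so the groups overlapped, and the highest value was in replicate 5. Choroid plexus markers ranged from 13921 to 54072 CPM in CON and from 1774 to 16582 in MAL-BG. In a sorted bulk sample, fewer cells of a type and less RNA per cell cannot be told apart. Library totals were 10312703 to 13461574 counts for CON, 10864121 to 12819982 for MAL, and 14191791 to 18705202 for MAL-BG. The study's methods include a batch term, but the batch of a library is not given in the sources used here, so no batch term was fitted and its part in the values was not tested.

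MHC class I molecules show peptides from inside the cell to CD8 T cells and natural killer cell receptors. A heavy chain (H2-K1 and H2-D1 are the classical heavy chain genes of this strain) pairs with beta-2 microglobulin (B2m) in the endoplasmic reticulum. Peptides cut by the proteasome enter through the transporter made of Tap1 and Tap2, are trimmed by the aminopeptidase Erap1, and are placed in the groove by a loading complex in which tapasin (Tapbp), calreticulin (Calr), and the thiol oxidoreductase ERp57 (Pdia3) hold the empty molecule. Nlrc5 is a transactivator of class I genes, and microglia are known to raise the pathway in response to interferons.

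H2-K1, H2-D1, Tap1, Tap2, and Tapbp lie on chromosome 17 in the MHC region, B2m and Pdia3 on chromosome 2, Nlrc5 and Calr on chromosome 8, and Erap1 on chromosome 13 (GRCm38). H2-K1 spans chr17:33996017-34000347 on the minus strand, H2-D1 chr17:35262730-35267499, Tap1 chr17:34187553-34197225, Tap2 chr17:34203527-34216321, and Tapbp chr17:33915899-33929292, all 4 on the plus strand. B2m spans chr2:122147686-122153083 and Pdia3 chr2:121413775-121438687 on the plus strand, Nlrc5 chr8:94434356-94527272 on the plus strand, Calr chr8:84841850-84846934 on the minus strand, and Erap1 chr13:74639568-74693201 on the plus strand. The heavy chain genes resemble each other and their relatives. Of the 42-base stretches of their transcripts, 13.63% in H2-K1 and 17.75% in H2-D1 also occur in another gene, mostly another class I heavy chain, so their counts carry a larger uncertainty than those of the other members (at most 3.56%). The strand option of the counting is not given in the sources used here. Without strand, reads of Tapbp could not be told from those of the antisense gene Gm19412, which covers 24.9% of its exon bases, nor those of Tap2 from Gm15821, which covers 14.1%, nor those of Erap1 from Cast, which covers 11.5%.

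The promoter regions of B2m, H2-K1, and Calr are printed because B2m and H2-K1 encode the partner chains, whose levels are compared below, and because Calr holds a motif match that few promoters hold. They are the bases before a RefSeq start that lie in no exon of the GENCODE annotation (GRCm38.p6, 5′ to 3′ on the strand of the gene). H2-K1 has 2 RefSeq windows with different starts, and the bases printed are from the first. Its RefSeq gene spans chr17:33996012-34000619, so the printed bases lie inside that span. Capitals mark matches, on either strand, to the interferon-response letters (GAAA, any 2 bases, GAAA), to the NF-kB motif, to the box CCAAT, and to the endoplasmic reticulum stress element (CCAAT, any 9 bases, CCACG), which contains that box.
B2m, chr2:122147437-122147685, plus strand: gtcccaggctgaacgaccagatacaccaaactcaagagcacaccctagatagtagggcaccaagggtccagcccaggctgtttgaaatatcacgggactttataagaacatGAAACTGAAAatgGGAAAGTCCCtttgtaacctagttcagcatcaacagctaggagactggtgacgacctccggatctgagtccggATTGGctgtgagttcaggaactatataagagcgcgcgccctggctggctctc
H2-K1, chr17:34000348-34000597, minus strand: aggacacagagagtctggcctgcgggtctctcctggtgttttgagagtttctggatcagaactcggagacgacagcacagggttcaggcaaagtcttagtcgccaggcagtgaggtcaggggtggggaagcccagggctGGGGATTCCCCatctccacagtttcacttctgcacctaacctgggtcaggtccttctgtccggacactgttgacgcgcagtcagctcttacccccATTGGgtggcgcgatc
Calr, chr8:84846935-84847181, minus strand: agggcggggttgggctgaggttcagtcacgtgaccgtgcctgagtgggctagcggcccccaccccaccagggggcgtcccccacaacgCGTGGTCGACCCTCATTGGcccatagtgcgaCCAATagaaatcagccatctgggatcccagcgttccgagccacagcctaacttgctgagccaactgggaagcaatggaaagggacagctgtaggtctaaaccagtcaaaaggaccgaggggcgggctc

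RefSeq windows from 250 bases before to 50 bases after the start were at hand for 8 of the 10 members, all but Tap2 and Nlrc5. B2m held the interferon-response letters at -139 to -130 from its start and a match to the NF-kB motif at -126 to -117. H2-K1 held overlapping NF-kB matches between -111 and -101 in its first window, and H2-D1 held the same pair between -171 and -161. Erap1 held the interferon-response letters across its start. The interferon-response letters occur in 3.44% of the 32851 windows of all genes, and the NF-kB motif in 4.51%. Calr held the stress element at -162 to -144, letters that 39 of all windows (0.119%) hold. The box CCAAT was in 7 of the 8 windows, all but that of Erap1, against 37.4% of all windows. The letters TTCNNNGAA, searched on both strands as the interferon gamma activated site, were in 0 of the 8 windows and in 8.3% of all windows. These are letter matches and not measured binding.

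Levels per kilobase of exon set the members in an order that spans from B2m to Nlrc5. In CON, B2m had a mean of 1447 CPM per kb, followed by Calr with 305, H2-K1 with 261, Pdia3 with 212, H2-D1 with 110.1, Tapbp with 74.6, Tap2 with 36.2, Tap1 with 13.3, Erap1 with 7.52, and Nlrc5 with 2.99. In that order, the CON libraries of Calr and H2-K1, of H2-K1 and Pdia3, and of H2-D1 and Tapbp overlapped, and those of the other neighbours did not. In MAL-BG, the means per kb were 1793 for B2m, 407 for Calr, 331 for Pdia3, 323 for H2-K1, 178 for H2-D1, 176 for Tapbp, 87.3 for Tap2, 24.9 for Tap1, 8.87 for Erap1, and 1.84 for Nlrc5.

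The comparison of MAL-BG with CON showed 5 of the 10 members higher (H2-D1, Tap1, Tap2, Tapbp, and Pdia3), 1 lower (Nlrc5), and 4 not called (H2-K1, B2m, Erap1, and Calr), on levels scaled to library size by TMM. A call needed an adjusted p under 0.05 by edgeR's quasi-likelihood test and an absolute log2 fold change above 0.58. Among all 14565 genes tested, 33.1% were called in this comparison, 11.4% higher and 21.7% lower. The median log2 fold change was 0.53 over the 10 members and -0.04 over all genes. The same 6 members were called in the same directions against MAL, where 30.4% of all genes were called, 10.2% higher and 20.2% lower, and where the median log2 fold change was 0.50 over the members and -0.03 over all genes. Scaling the libraries instead to the microglial markers moved the median of all genes to -0.81 against CON and -0.75 against MAL. Relative to that median, 5 of the 10 members lay higher by more than 0.58 in each comparison (H2-D1, Tap1, Tap2, Tapbp, and Pdia3). Taking off the median largely undoes the scaling, so this count repeats the TMM result and does not test it. With the marker scaling itself, H2-D1 and Pdia3 were negative in both comparisons. On that scale, 1 member was called against CON (Nlrc5, lower) and 2 against MAL (Nlrc5 and Erap1, both lower). With length and GC offsets (corrections for the trend of counts with exon length and GC content in each library) added to it, Tap2 and Tapbp were called higher against CON and Tapbp against MAL, beside Nlrc5 and B2m, both lower in each. Whether the higher share of microglial RNA in MAL-BG had a part in the members' values was not tested.

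**Figure D1:**
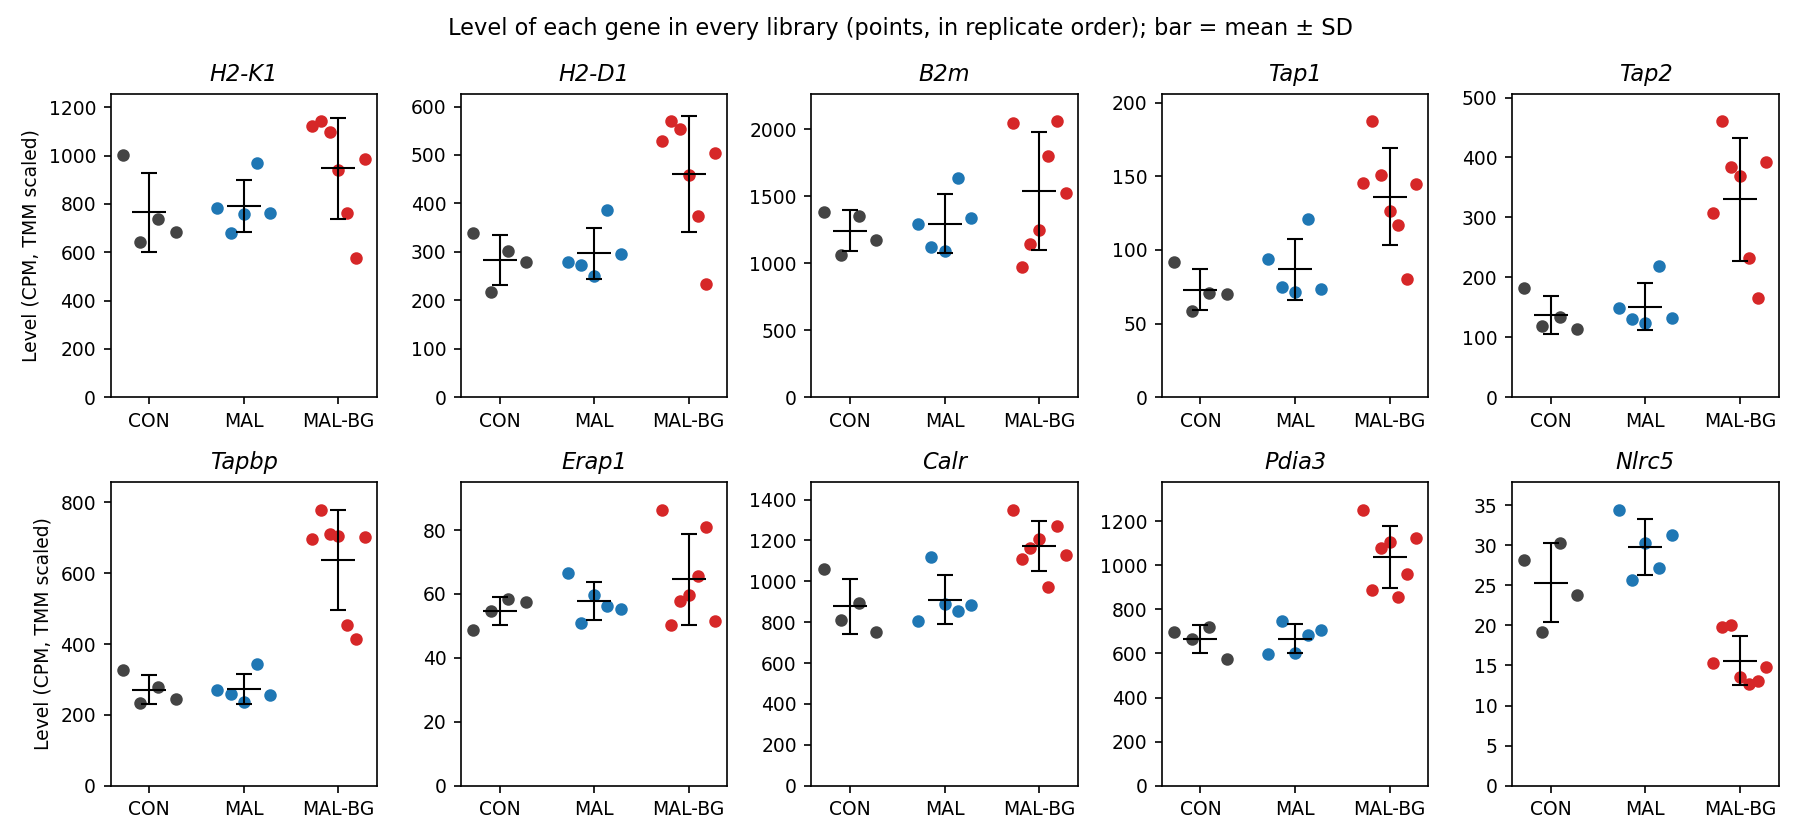
Level of each of the 10 genes (y axis, CPM scaled by TMM, from 0) in every library of CON (n = 4), MAL (n = 5), and MAL-BG (n = 7), with bars for mean ± SD. Tapbp and Pdia3 in all 7 MAL-BG libraries sit above all 9 others on this scale, as 6.17% of all genes tested do. Scaling to microglial markers put Pdia3 at a log2 fold change of -0.12 and Tapbp at 0.50 against CON.

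The classical heavy chains differed from each other in how far they moved. H2-K1 was at 1004, 642, 736, and 682 CPM in the CON libraries and at 784, 679, 757, 971, and 764 CPM in the MAL libraries. Its MAL-BG values ranged from 577 to 1143 CPM with a median of 985. The groups overlapped, and the lowest of the 16 libraries was a MAL-BG library, replicate 6. H2-K1 differed by 0.31 ± 0.18 (SE) on the log2 scale against CON (adjusted p = 0.18) and 0.26 ± 0.17 against MAL (adjusted p = 0.22), neither called, and was at -0.42 in both with microglial marker scaling. H2-D1 was at 339, 217, 301, and 278 CPM in CON and at 278, 273, 251, 387, and 296 CPM in MAL. Levels in MAL-BG ranged from 233 to 569.9 CPM with a median of 505, and 6 of 7 libraries lay above all CON libraries. H2-D1 was higher by 0.70 ± 0.21 on the log2 scale against CON (adjusted p = 0.0124) and by 0.63 ± 0.19 against MAL (adjusted p = 0.0142) with TMM, and was at -0.03 and -0.04 with microglial marker scaling. Its call ended without CON replicate 2 (0.57, adjusted p = 0.0521) and, against MAL, without MAL replicate 3 (0.56) or MAL-BG replicate 3 (0.57). With length and GC offsets, it was at 0.57 against CON and 0.47 against MAL, under the fold threshold.

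The ratio of the 2 heavy chains within a library hardly depends on how libraries are scaled. The ratio of H2-K1 CPM to H2-D1 CPM was 2.96, 2.96, 2.44, and 2.45 in CON and 2.81, 2.48, 3.01, 2.51, and 2.58 in MAL. The 7 MAL-BG libraries ranged from 1.95 to 2.48 with 6 of the 7 libraries at or below 2.13, and all 7 lay below the MAL libraries. The difference in mean log2 ratio was -0.36 against MAL (two-sided exact permutation test, p = 0.00253, adjusted p = 0.0341 over 27 tests, the smallest p these 792 splits allow) and -0.37 against CON (exact permutation test, p = 0.0182, adjusted p = 0.0818). With length and GC offsets, the difference against CON was -0.38 with an adjusted exact permutation p of 0.0409.

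B2m, the light chain of every class I molecule, varied widely within MAL-BG and not in step with the heavy chains. It was at 1384, 1063, 1355, and 1174 CPM in CON and at 1296, 1122, 1089.6, 1637, and 1337 CPM in MAL. The MAL-BG libraries ranged from 970.1 to 2062 CPM with a median of 1522, so the MAL-BG libraries held both the lowest and the highest value of the 16. The log2 fold change was 0.31 ± 0.20 against CON (adjusted p = 0.223) and 0.25 ± 0.19 against MAL (adjusted p = 0.289), not called, and it was at -0.09 and -0.10 with length and GC offsets and at -0.49 and -0.48 with microglial marker scaling. MAL-BG replicate 6 had the highest B2m level and the lowest H2-K1 and H2-D1 levels of its group. MAL-BG replicate 1 had a similar B2m level, at 2050 CPM, with H2-K1 at 1124 CPM and H2-D1 at 528 CPM. The ratio of H2-K1 to B2m ranged from 0.543 to 0.725 in CON, from 0.572 to 0.694 in MAL, and from 0.280 to 1.18 in MAL-BG. Its mean log2 ratio was -0.71 ± 0.18 (SD) in CON, and likewise -0.71 ± 0.11 in MAL, but with a far larger SD in MAL-BG (-0.68 ± 0.71), so the MAL-BG libraries spread on both sides of the others around a similar mean.

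The peptide transporter genes Tap1 and Tap2 were both called higher in MAL-BG with TMM, and Tap2 had the larger log2 fold change in both comparisons. Tap1 was at 91.9, 58.6, 71.0, and 70.4 CPM in CON and at 93.5, 74.5, 71.5, 121, and 73.7 CPM in MAL. Its MAL-BG values ranged from 80.5 to 187 CPM with a median of 145, overlapping both groups. It was higher by 0.90 ± 0.20 on the log2 scale against CON (adjusted p = 0.00212) and by 0.65 ± 0.19 against MAL (adjusted p = 0.00986), where microglial marker scaling gave -0.01 and where the call ended without MAL replicate 3 (0.58, adjusted p = 0.0301, just under the fold threshold). Tap2 was at 182, 118, 134, and 114 CPM in CON and at 149, 131, 124, 219, and 133 CPM in MAL. Levels in MAL-BG ranged from 165 to 461 CPM with a median of 368, and 6 of 7 libraries lay above all the others. It was higher by 1.27 ± 0.25 against CON (adjusted p = 8.09e-04) and by 1.13 ± 0.23 against MAL (adjusted p = 0.00105), and stayed positive but not called with microglial marker scaling (0.56 and 0.48).

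Within libraries, the ratio of Tap1 to Tap2 was lower in MAL-BG than in MAL. It was 0.506, 0.498, 0.533, and 0.618 in CON and ranged from 0.552 to 0.630 in MAL. The 7 MAL-BG libraries ranged from 0.344 to 0.506, and all 7 libraries lay below the MAL libraries. The difference in mean log2 ratio was -0.45 against MAL (two-sided exact permutation test, p = 0.00253, adjusted p = 0.0341) and -0.35 against CON (exact permutation test, p = 0.0182, adjusted p = 0.0818). Both called ratios lost the call against MAL in most tests that left out a library, and fewer libraries also raise the smallest p the permutations can give.

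**Figure D2:**
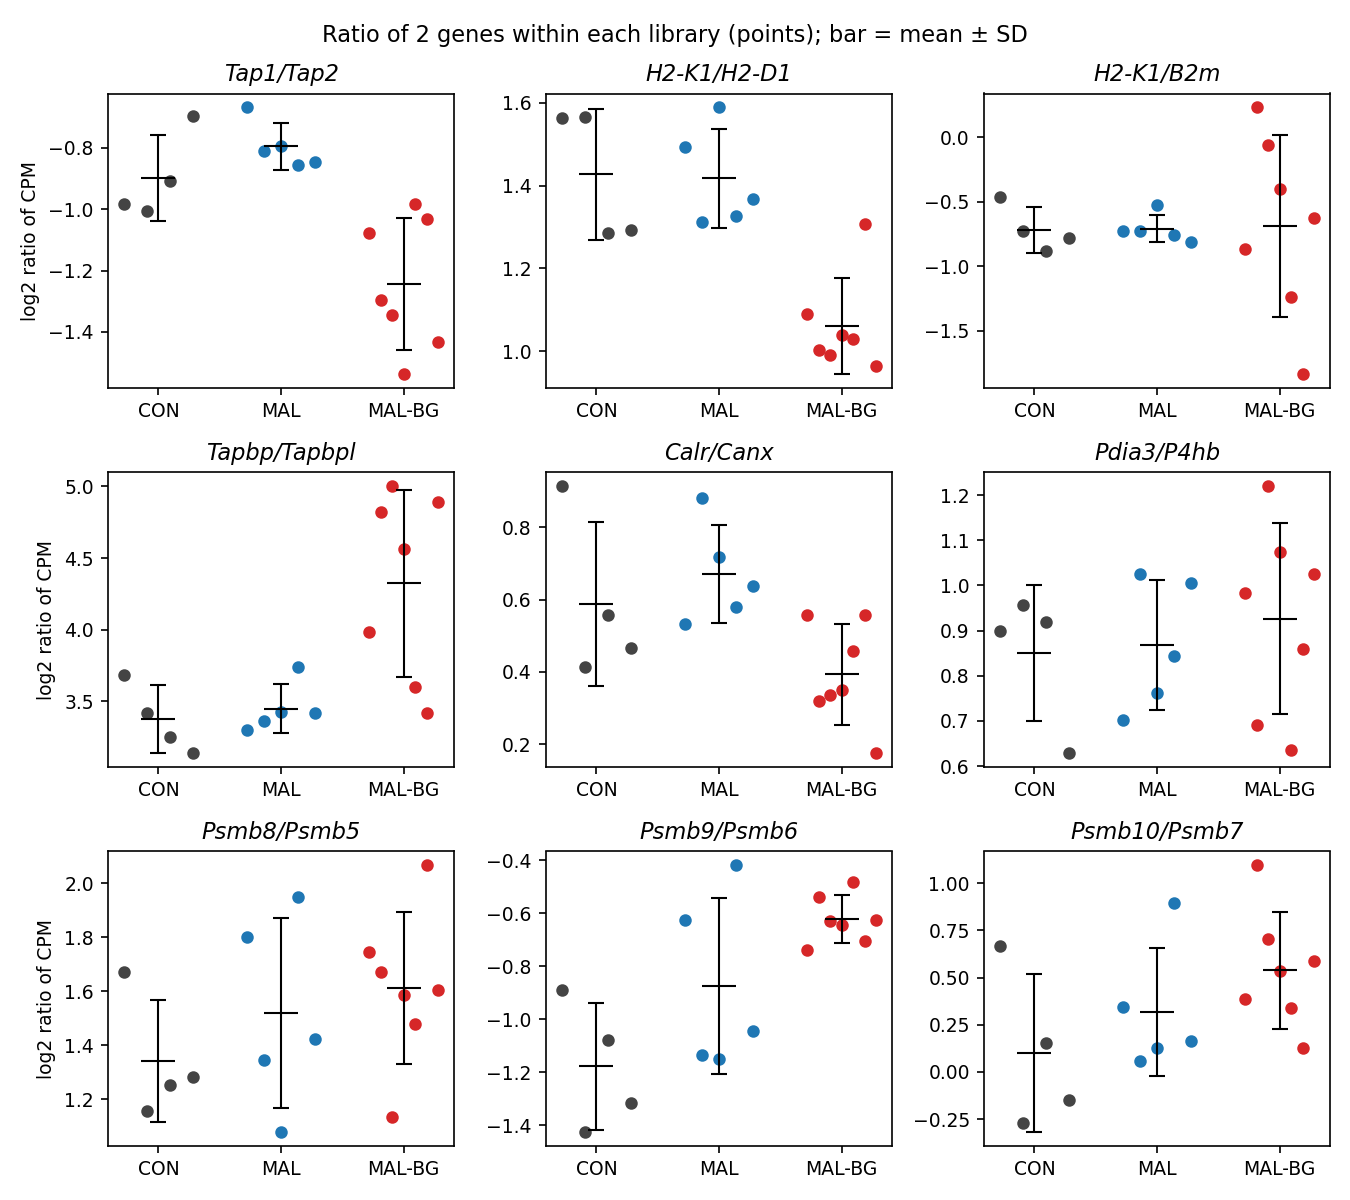
The log2 ratio of CPM of 2 genes in every library (y axis of each panel) for 9 pairs, with bars for mean ± SD in CON (n = 4), MAL (n = 5), and MAL-BG (n = 7). The ratios of H2-K1 to H2-D1 and of Tap1 to Tap2 lie lower in all 7 MAL-BG libraries than in the MAL libraries, while the ratio of H2-K1 to B2m spreads most in MAL-BG.

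Tapbp (tapasin, which bridges the transporter and the heavy chain) had the smallest adjusted p of the members in both comparisons. It was at 326, 234, 278, and 244 CPM in CON and at 271, 258, 237, 344, and 256 CPM in MAL. The MAL-BG libraries ranged from 414 to 779.6 CPM with a median of 703, and all 7 libraries lay above the other 9, which 6.17% of all genes tested did. It was higher by 1.24 ± 0.18 on the log2 scale against CON (adjusted p = 9.98e-05) and by 1.22 ± 0.17 against MAL (adjusted p = 5.81e-05), and at 0.50 and 0.54 with microglial marker scaling, under the fold threshold. The MAL-BG libraries formed a high set of 5 at 696 CPM or more and a low pair, replicates 5 and 6, at 454 and 414. The ratio of Tapbp to Tapbpl, the tapasin-related peptide editor that works outside the loading complex, was 8.81 to 12.9 for CON libraries, 9.84 to 13.4 for MAL, and 10.7 to 32.1 for MAL-BG. Its mean log2 ratio was higher by 0.95 against CON (exact permutation test, p = 0.0303, adjusted p = 0.102) and by 0.88 against MAL (p = 0.0227, adjusted p = 0.0877), and the difference was called with length and GC offsets, at 1.14 against CON (adjusted exact permutation p = 0.0468) and 1.05 against MAL (adjusted exact permutation p = 0.0409).

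The lectin chaperone Calr and its partner Pdia3, which help many glycoproteins fold besides class I molecules, were both above CON and MAL in most MAL-BG libraries. Calr was at 1058, 809, 893, and 752 CPM in CON and at 805, 1119.7, 891, 853, and 886 CPM in MAL. Its MAL-BG values ranged from 970.3 to 1351 CPM with a median of 1162. Its log2 fold change was 0.42 ± 0.13 against CON (adjusted p = 0.0158) and 0.36 ± 0.12 against MAL (adjusted p = 0.0223), which passed the p threshold and not the fold threshold, and microglial marker scaling put it at -0.34 and -0.38. By the p threshold alone, 6 members were higher and 1 lower in each comparison, beside 19.8% and 25.2% of all genes against CON and 20.2% and 24.1% against MAL. Pdia3 was at 699, 667, 718, and 576 CPM in CON and at 597, 749, 604, 685, and 704 CPM in MAL. Levels in MAL-BG ranged from 856 to 1253 CPM with a median of 1078, and all 7 libraries lay above the other 9. Of all genes tested, 6.17% did so. It was higher by 0.64 ± 0.13 against CON (adjusted p = 7.88e-04) and by 0.64 ± 0.12 against MAL (adjusted p = 5.13e-04) with TMM, and was at -0.12 and -0.09 with microglial marker scaling. Length and GC offsets put it at 0.50 and 0.52, under the fold threshold, and so did leaving out CON replicate 4 (0.57 against CON). The ratio of Calr to Canx differed by -0.28 on the log2 scale against MAL (exact permutation test, p = 0.0101, adjusted p = 0.0682) and that of Pdia3 to P4hb by 0.06 (exact permutation test, adjusted p = 0.759), neither called. With length and GC offsets the difference for Calr to Canx against MAL was called, at -0.39 (adjusted exact permutation p = 0.0455). Canx is the membrane-bound relative of Calr, and P4hb is another disulfide isomerase.

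Erap1, which trims peptides in the endoplasmic reticulum, was not called. It was at 48.7, 54.5, 58.3, and 57.4 CPM in CON and at 66.7, 50.8, 59.8, 56.4, and 55.2 CPM in MAL. The 7 MAL-BG libraries ranged from 50.2 to 86.4 CPM with a median of 59.7, and the groups overlapped. The log2 fold change was 0.24 against CON (95% confidence interval -0.07 to 0.54, adjusted p = 0.189) and 0.16 against MAL (-0.12 to 0.44, adjusted p = 0.343), and microglial marker scaling put it at -0.57 and -0.59.

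Nlrc5, the transactivator of class I genes and the least abundant of the members, was the only member of the 10 called lower. It was at 28.2, 19.2, 30.2, and 23.8 CPM in CON and at 34.5, 25.7, 30.3, 27.2, and 31.3 CPM in MAL. The MAL-BG libraries ranged from 12.7 to 20.1 CPM with a median of 14.8, so that all 7 libraries lay below all MAL libraries, as 8.95% of all genes tested did, and 5 of 7 below all CON libraries. It was lower by 0.70 ± 0.16 on the log2 scale against CON (log2 fold change -0.70, adjusted p = 0.00195) and by 0.93 ± 0.15 against MAL (-0.93, adjusted p = 1.67e-04), and lower with every scaling run. With length and GC offsets it was at -0.49 against CON, under the fold threshold, and at -0.73 against MAL, called. Its merged exons, at 8493 bases, are the longest of the members, and 6 of the 7 MAL-BG libraries had lower counts on longer genes than CON and MAL libraries did (-0.0814 to -0.16 on the log2 scale per doubling of length, against 0.00277 to 0.124). The part of this length trend in the Nlrc5 values was not tested beyond the offsets. Nlrc5 was called lower and H2-D1, Tap1, Tap2, and Tapbp, which are class I pathway genes, were called higher in the same comparison with TMM.

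**Figure D3:**
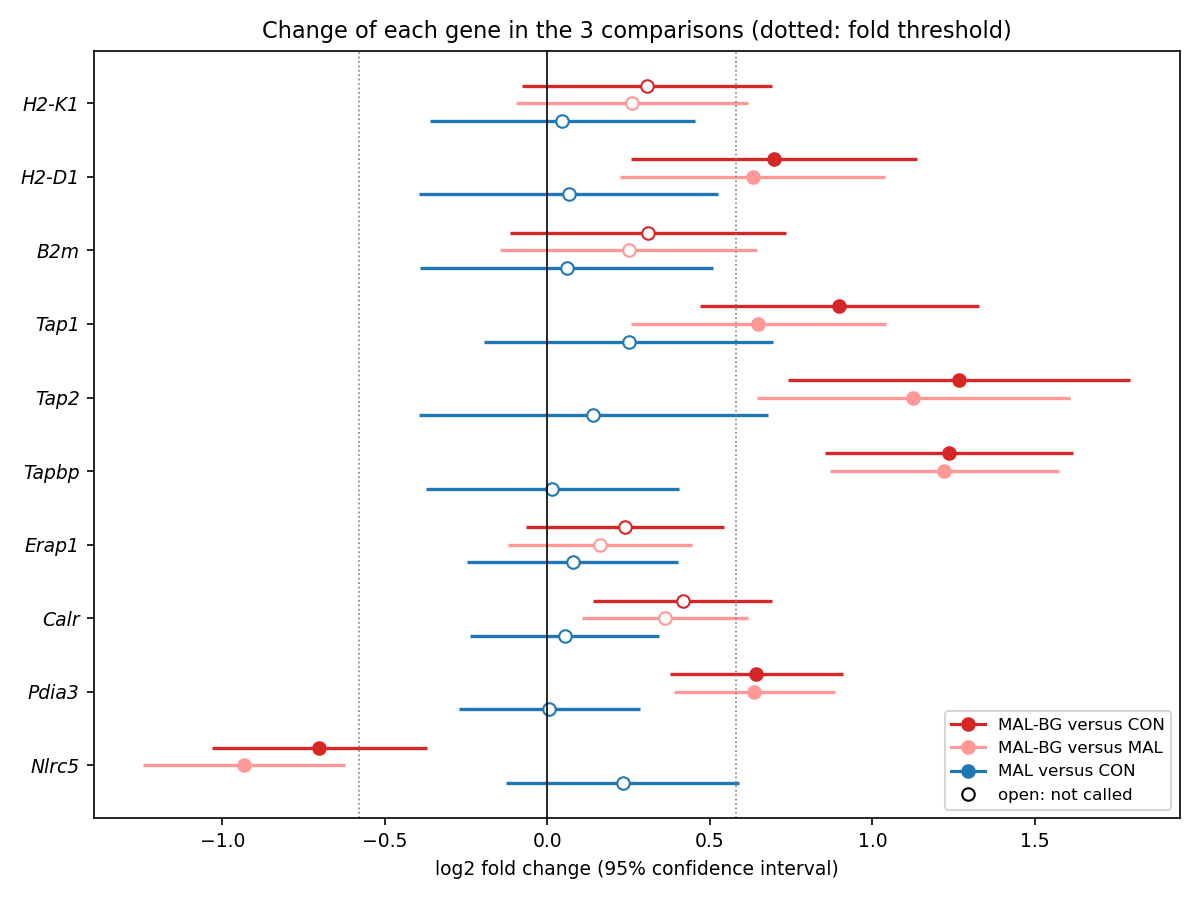
Log2 fold change with its 95% confidence interval (x axis) for each gene in the 3 comparisons, with filled points for calls and dotted lines at the fold threshold of 0.58. Tap2 and Tapbp lie farthest right and Nlrc5 farthest left in both MAL-BG comparisons on the TMM scale (microglial marker scaling turns H2-K1, H2-D1, B2m, Erap1, Calr, and Pdia3 negative in both, and Tap1 against MAL), and the MAL versus CON intervals all cross 0.

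MAL and CON were not told apart by any member. Log2 fold changes of MAL versus CON ranged from 0.01 (Pdia3) to 0.25 (Tap1), and every adjusted p was 0.9995 by edgeR's quasi-likelihood test. Tap1 was at 0.099 when MAL replicate 4 was left out, at 0.15 when it was CON replicate 2, and at 0.37 for CON replicate 1. Nlrc5, at 0.23 with all libraries, was at 0.12 when CON replicate 2 was left out. The 95% confidence interval was -0.20 to 0.69 for Tap1, -0.13 to 0.59 for Nlrc5, and -0.36 to 0.45 for H2-K1, so these libraries do not exclude changes of that size. Over all genes, 0 of 14565 were called (0%) by edgeR and 0 by DESeq2, while 212 genes (1.46%) had an unadjusted p under 0.05 with edgeR and 241 with DESeq2. MAL replicate 4 was the highest of its group for H2-K1, H2-D1, B2m, Tap1, Tap2, and Tapbp.

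Among libraries of the same group, the members fell into sets that moved together. After the group mean was taken off, H2-K1, H2-D1, Tap1, Tap2, and Tapbp were correlated over the 16 libraries with Pearson's r of 0.896 to 0.964 and Spearman's rho of 0.868 to 0.968 for all 10 pairs (permutation within groups, adjusted p of at most 0.0013 for r and 9e-04 for rho over 45 pairs). Without the 2 libraries farthest from the median, r was 0.813 to 0.938, and with length and GC offsets it was 0.882 to 0.962. These 5 genes also have the highest GC content of the members, 54.3% to 57.1%. No correlation of B2m with them was detected (r of -0.362 to -0.204, rho of -0.191 to -0.0294, adjusted permutation p of at least 0.485 and 0.779), and its r with them was -0.00498 to 0.449 without the 2 farthest libraries. The value over all 16 libraries joins opposite signs. Over the 9 CON and MAL libraries, B2m had an r of 0.805 to 0.934 and a rho of 0.833 to 0.967 with these 5 genes (exact permutation within groups, adjusted p of at most 0.0104 for r and 0.0234 for rho over 30 tests), and r was 0.706 to 0.875 without the 2 farthest libraries. Over the 7 MAL-BG libraries, r of B2m with them was -0.806 to -0.596 and rho -0.964 to -0.607. For r, the adjusted exact permutation p was 0.0279 with Tap2 and 0.0787 to 0.162 with the others. For rho, it was 0.0139 with Tapbp, 0.0325 with Tap2, and 0.0686 to 0.167 with the others. Without the 2 farthest libraries, r was -0.674 to -0.173. The difference between the groups in these correlations was not tested, and the split was chosen after the values were seen. The 5 genes among themselves had an r of 0.844 to 0.979 over the CON and MAL libraries and of 0.888 to 0.987 over the MAL-BG libraries (exact permutation within groups, adjusted p of at most 0.0137). Over the 16 libraries, every pair of these 5 genes had a higher r than any other pair of members. Their values in parts of the same libraries therefore largely repeat that result and are no separate test. For rho, the adjusted exact permutation p was at most 0.034 over the CON and MAL libraries and at most 0.0686 over the MAL-BG libraries. Without the 2 farthest libraries, r fell to between 0.0768 and 0.922 in MAL-BG, so for some pairs the relation within that group rests on those libraries. The r of B2m with Erap1, the other member with a GC content under 42% (41.2% and 41.5%), was 0.659 and rho was 0.521 (permutation within groups, adjusted p = 0.107 and 0.203), with r at 0.456 without the 2 farthest libraries. Calr and Pdia3 were correlated with an r of 0.701 and a rho of 0.715 (permutation within groups, adjusted p = 0.0133 and 0.0156), at 0.716 without the 2 farthest libraries. MAL-BG replicate 6 had the steepest fall of counts with GC content of the 16 libraries, at -0.206 on the log2 scale per 10 points of GC, and replicate 2 the steepest rise, at 0.108.

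**Figure D4:**
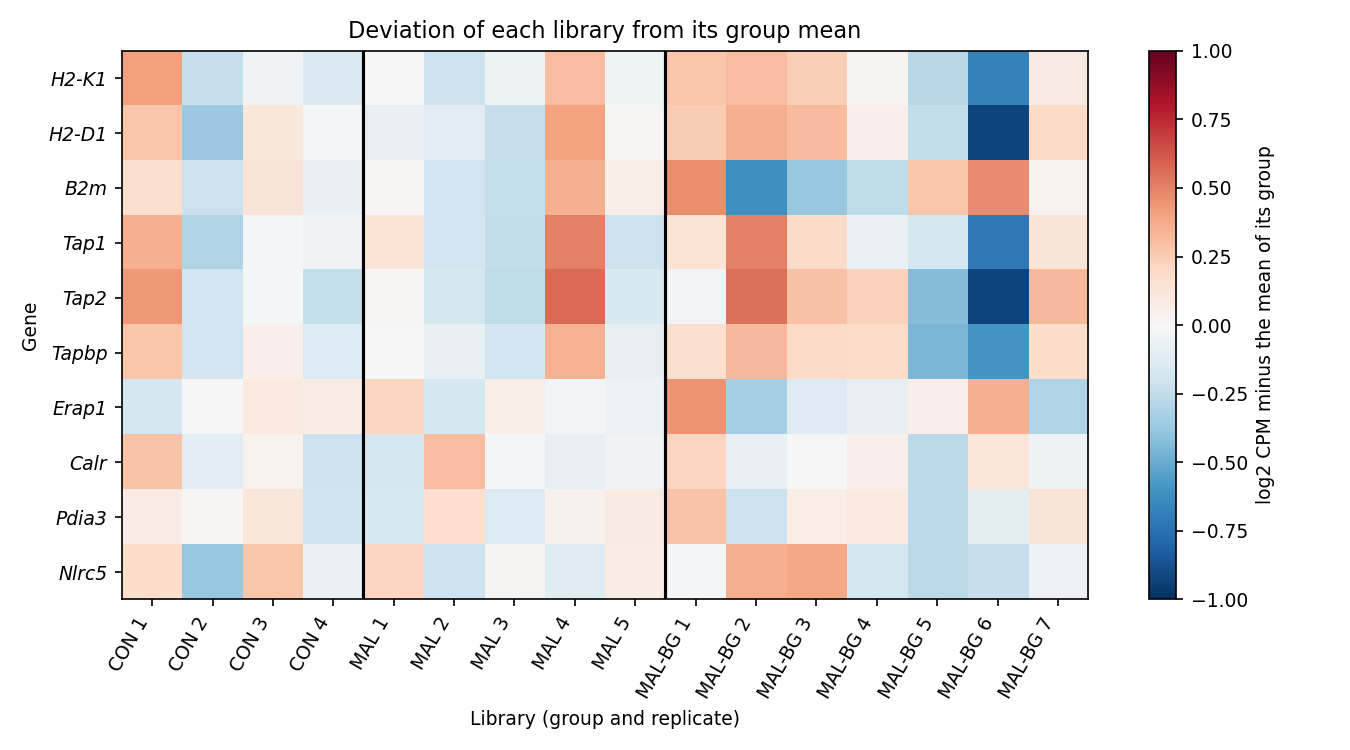
Deviation of log2 CPM from the mean of its group (colour, from -1 to 1) for each gene (rows) in each of the 16 libraries (columns). H2-K1, H2-D1, Tap1, Tap2, and Tapbp are low together in MAL-BG replicate 6 (-0.93 to -0.59) and replicate 5 (-0.45 to -0.18), where B2m is high (0.47 and 0.28). In MAL-BG replicate 1, B2m is also high (0.46). There H2-K1 (0.28), H2-D1 (0.25), Tap1 (0.14), and Tapbp (0.16) lie above their group means and Tap2 is at -0.03.

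With MAL-BG replicates 5 and 6 both left out, which was chosen after the values were seen, 5 members were called against CON and 6 against MAL. H2-K1 was then at 0.51 on the log2 scale against CON (adjusted p = 0.0207) and 0.45 against MAL (adjusted p = 0.0256), under the fold threshold, and Tap2 and Tapbp were at 1.51 and 1.45 against CON. Nlrc5 was at -0.56 against CON, no longer called, and at -0.80 against MAL. The genes most like H2-K1 over the 16 libraries by the same measure, among 9776 genes with a mean of at least 10 CPM, were Smpd2 (r = 0.929), Bst2 (0.901), Dnase2a (0.899), Slc37a4 (0.898), and B9d2 (0.896). The genes most like Calr were Pdia4 (0.867), P4ha1 (0.816), Actr8 (0.812), Dnajb11 (0.792), and Mrpl38 (0.778). Bst2 is an interferon-induced membrane protein, and Pdia4 and Dnajb11 are folding factors of the endoplasmic reticulum. All of these genes were measured in the same libraries as the members, and the values are a description. Summed lymphocyte markers had an r of 0.802 with H2-K1 and 0.850 with Tapbp by the same measure, microglial markers 0.503 and 0.565, and neutrophil markers 0.0276 and -0.0969, and the part of these cells in the members' values was not tested.

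Genes that supply peptides moved in part with the members. Of 5 genes of the immunoproteasome and its activator, 4 were called higher against CON and 3 against MAL, with median log2 fold changes of 0.67 and 0.58. Among all genes tested, 11.4% were called higher against CON and 10.2% against MAL. Psmb8 against CON (0.5835) and Psmb10 against MAL (0.5803) passed the fold threshold of 0.58 only narrowly. Psmb9, a catalytic subunit encoded beside Tap1, was higher by 0.86 ± 0.16 against CON (adjusted p = 4.56e-04), Psmb10, another catalytic subunit, by 0.67 ± 0.14 (adjusted p = 0.00146), and the activator subunit Psme2 by 0.79 ± 0.18 (adjusted p = 0.00263). Its partner Psme1 was at 0.08. The standard subunits that they replace, Psmb5, Psmb6, and Psmb7, were called in 0 of 3 cases in either comparison, with log2 fold changes against CON of 0.32, 0.30, and 0.23, and adjusted p alone under 0.05 by edgeR for 1 of 3 against CON and 3 of 3 against MAL. The log2 ratio of Psmb9 to Psmb6 was higher by 0.55 in MAL-BG than in CON, with all 7 libraries above CON (exact permutation test, p = 0.00606, adjusted p = 0.0545), and the ratios of Psmb8 to Psmb5 and of Psmb10 to Psmb7 were higher by 0.27 and 0.44 (exact permutation tests, adjusted p = 0.314 and 0.229), none of them called. With length and GC offsets the difference for Psmb9 to Psmb6 against CON was called, at 0.72 (adjusted exact permutation p = 0.0409). Against MAL, the ratio of Psmb9 to Psmb6 differed by 0.25 with 0 of 7 libraries above all MAL libraries (exact permutation test, adjusted p = 0.229), that of Psmb8 to Psmb5 by 0.09, and that of Psmb10 to Psmb7 by 0.22, none called. MAL lay 0.30 above CON for Psmb9 to Psmb6 (exact permutation test, adjusted p = 0.363), also not called.

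Of 26 other genes of peptide supply, trimming, loading, and export, 5 were called higher and 1 lower against CON, and 5 higher and 2 lower against MAL. The shares of all genes called higher and lower were 11.4% and 21.7% against CON, and 10.2% and 20.2% against MAL. Against CON, Blmh (a cytosolic peptidase) was higher by 1.04 ± 0.14 (adjusted p = 6.15e-05), Prkcsh (a subunit of the glucosidase that trims glycans for calreticulin binding) by 0.86 ± 0.14, Canx by 0.62 ± 0.10, and the vesicle GTPase Rab14 by 0.70 ± 0.12. Of 14 other heavy chains and class I-like genes that passed the filter, out of 26 listed, 5 were called higher and 4 lower against CON. H2-M3, a heavy chain for formylated peptides, was higher by 1.06 ± 0.18 (adjusted p = 2.43e-04), while H2-Q5 was at -2.74 ± 0.24, H2-K2 at -1.44 ± 0.27, and H2-Q4 at -0.83 ± 0.16, all called lower. Reads of near-identical heavy chain genes can be shared among copies, so these counts are uncertain.

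Of 22 other chaperones and foldases of the endoplasmic reticulum, 4 were called higher and 1 lower in each MAL-BG comparison. Pdia6, a relative of Pdia3, was higher by 0.99 ± 0.17 against CON (adjusted p = 2.71e-04), Hsp90b1 by 0.93 ± 0.20 (adjusted p = 0.00168), and Creld2 by 0.92 ± 0.18 (adjusted p = 8.09e-04), and the stress-induced factor Ddit3 was lower, at -0.81 ± 0.22 (adjusted p = 0.00687). Of 25 regulators of class I genes, 1 was called higher and 2 lower against CON. The interferon gamma receptor chain Ifngr1 was higher by 0.89 ± 0.16 (adjusted p = 4.24e-04), and the transcription factors Irf1 (-1.20 ± 0.17, adjusted p = 7.36e-05) and Stat2 (-0.81 ± 0.12, adjusted p = 1.40e-04) were lower, as was Nlrc5. Of 27 interferon-stimulated genes, 5 were called higher and 2 lower against CON, and 3 higher and 4 lower against MAL. For all genes tested, the shares called higher and lower were 11.4% and 21.7% against CON, and 10.2% and 20.2% against MAL. Igtp, a GTPase induced by interferon gamma, was higher by 0.90 ± 0.12 (adjusted p = 3.55e-05), Bst2 by 0.95 ± 0.27 (adjusted p = 0.00868), and Rsad2 by 0.90 ± 0.31 (adjusted p = 0.0253), and Mx1 was lower, at -0.73 ± 0.29 (adjusted p = 0.0468). All values of these lists are with TMM, and with microglial marker scaling the genes of all lists called against CON went from 41 (29 higher) to 65 (1 higher).

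**Figure D5:**
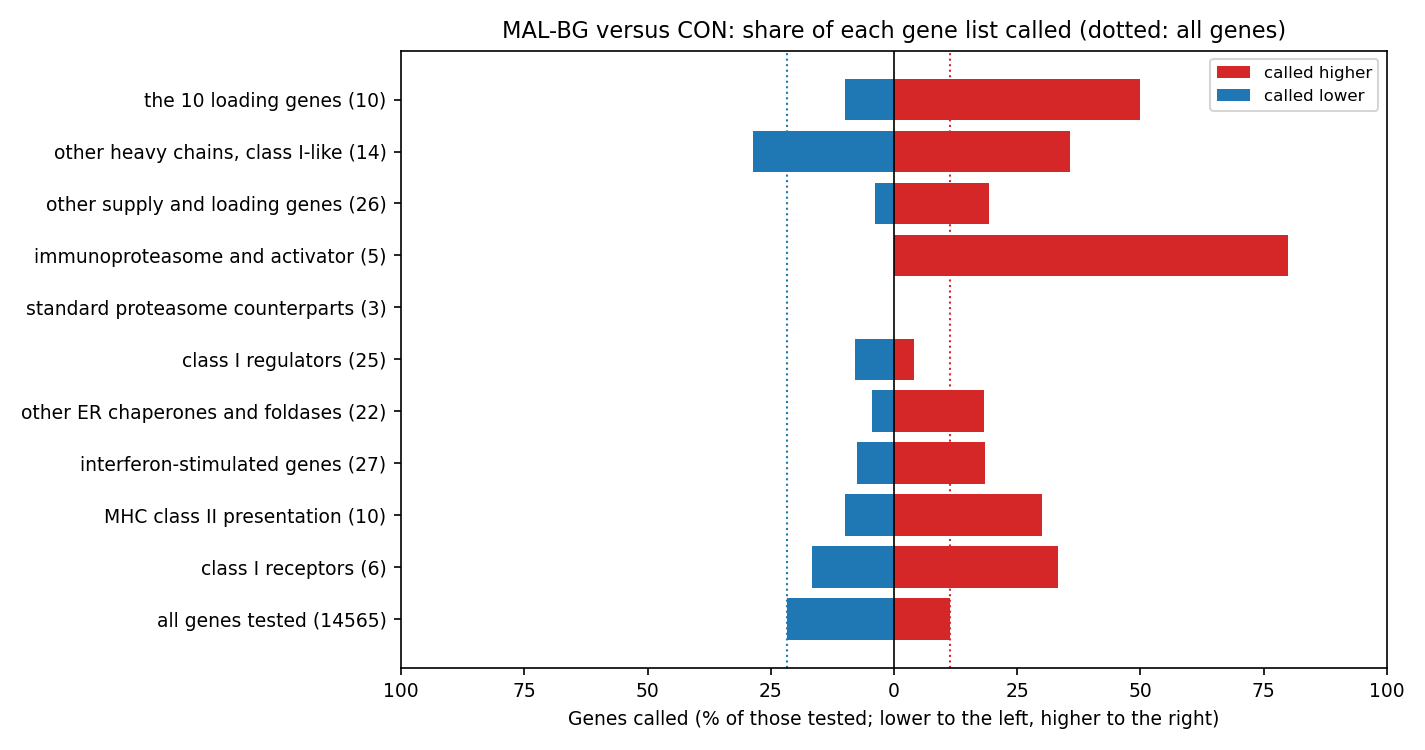
Share of each gene list called higher (to the right) or lower (to the left) in MAL-BG versus CON (x axis, % of the genes tested, whose number stands beside each list), with dotted lines at the shares of all genes, 11.4% and 21.7%. The immunoproteasome list (4 of 5) and the 10 loading genes (5 of 10) reach furthest right on the TMM scale, while with microglial marker scaling 0 of the 10 loading genes were called higher.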

How the data were processed

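RNA-Seq of CD11b+ brain cells was analysed for mice of the groups CON (n = 4), MAL (n = 5), and MAL-BG (n = 7). The authors aligned stranded poly(A) libraries to GRCm38 with STAR, counted reads per gene with HTSeq, and deposited raw counts that were not normalized. The counting mode is not given in the sources used here. Groups were read from the column names, whose running numbers match no sample title.

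Rows were tested if 4 or more libraries had over 10 counts (14565 of 24421), and 27 rows have names that look like dates. Totals of all rows were scaled by TMM, and the 3 groups were fitted together in edgeR 4.0.16 (R 4.3.3) with Benjamini-Hochberg adjustment over all genes. DESeq2 1.42.0 without a batch term was an alternative. Log2 CPM had a prior count of 2, and ratios a pseudocount of 0.5 CPM with exact permutation tests (SciPy). Offsets for length and GC content covered 96.3% of genes tested. Steps were tested on simulated data. Replicates differed by more than sampling noise. Named list genes are those called in both MAL-BG comparisons in the same direction, at most 4 per list by p against CON, and the genes of the ratios. The members and lists were chosen with earlier results of these data known. Promoters are RefSeq windows of GRCm38.p6, and annotation is from GENCODE.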

Additional observations from a re-analysis of the deposited data

Results flagged for a closer look

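Dixon's gap test was run on 57 sets of values (10 genes and 9 ratios in each of the 3 groups). In 4 sets, 1 library stood far from the rest of its group. Chance gives about 5% of such sets, but the sets share libraries and genes and are not independent. Calr was highest in MAL replicate 2, at 1119.7 CPM with the next library at 891 CPM. Tap2 was highest in MAL replicate 4, at 219 CPM with the next at 149 CPM. In the same library, the log2 ratio of Tapbp to Tapbpl was highest, at 3.74 with the next at 3.42. The log2 ratio of H2-K1 to H2-D1 was highest of its group in MAL-BG replicate 6, at 1.31 with the next at 1.09.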

How the results depend on the processing

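No paired analysis was possible because the running numbers of the columns match no sample title and mark no shared animal or batch. The count of members called (6 against CON, 6 against MAL, 0 for MAL versus CON) was 6 in both MAL-BG comparisons with DESeq2 size factors, upper-quartile scaling, other filters, thinned libraries, fits of the 2 groups, and the DESeq2 test, and 7 in each without the fold threshold. Leaving out each library gave 5 to 6 against CON and 4 to 6 against MAL. Length and GC offsets gave 3 against CON and 4 against MAL. Microglial marker scaling gave 1 and 2, and with length and GC offsets added (chosen after seeing the data) 4 and 3. List genes called against CON went from 41 to 65 with microglial marker scaling. Ratios called went from 0 to 3 against CON and from 2 to 4 against MAL with length and GC offsets (chosen after seeing the data), and ranged from 0 to 2 against CON and 0 to 4 against MAL with a library left out, where fewer libraries allow only larger p values.

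With microglial marker scaling, log2 fold changes turned negative against CON for H2-K1 (-0.42), H2-D1 (-0.030), B2m (-0.49), Erap1 (-0.57), Calr (-0.34), and Pdia3 (-0.12), and against MAL for H2-K1 (-0.42), H2-D1 (-0.037), B2m (-0.48), Tap1 (-0.011), Erap1 (-0.59), Calr (-0.38), and Pdia3 (-0.090). For MAL versus CON, B2m (-0.0061), Tapbp (-0.038), and Pdia3 (-0.035) did. With the offsets added to that scaling, Tap2 (0.69, adjusted p = 0.0255) and Tapbp (0.62, adjusted p = 0.0099) were called higher against CON and Tapbp (0.63, adjusted p = 0.00625) against MAL by edgeR. Other values against CON were -0.42 for H2-K1, -0.030 for H2-D1, -0.77 for B2m, -0.36 for Erap1, -0.37 for Calr, and -0.13 for Pdia3, and against MAL -0.45 for H2-K1, -0.079 for H2-D1, -0.73 for B2m, -0.33 for Erap1, -0.41 for Calr, and -0.083 for Pdia3. For MAL versus CON they were -0.041 for B2m, -0.0044 for Tapbp, -0.030 for Erap1, and -0.052 for Pdia3. Length and GC offsets alone turned B2m against CON (-0.093) and MAL (-0.10), and Pdia3 (-0.017) and the log2 ratio of Pdia3 to P4hb (-0.018) for MAL versus CON. Pdia3 for MAL versus CON also turned with DESeq2 size factors (-0.0024) and the DESeq2 test (-0.0023). The cause was not tested.

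With a library left out, values of MAL versus CON on both sides of 0 ranged from -0.041 to 0.11 for B2m, -0.035 to 0.15 for Calr, -0.051 to 0.15 for H2-D1, -0.040 to 0.19 for H2-K1, -0.058 to 0.043 for Pdia3, -0.033 to 0.30 for Tap2, and -0.084 to 0.11 for Tapbp. Log2 ratios did so for H2-K1 to B2m (-0.049 to 0.090 for MAL versus CON, -0.12 to 0.22 against CON, -0.13 to 0.22 against MAL), H2-K1 to H2-D1 (-0.056 to 0.037), Pdia3 to P4hb (-0.057 to 0.058), and Tapbp to Tapbpl (-0.0044 to 0.18) for MAL versus CON, and Psmb8 to Psmb5 (-0.017 to 0.20) against MAL.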

Other observations

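Genes of MHC class II presentation, which shows peptides taken up from outside the cell, moved less uniformly than the class I loading genes in the values below, and the difference between the lists was not tested. Of 10 class II genes, 3 were called higher and 1 lower against CON, and 2 higher and 5 lower against MAL. The shares of all genes tested that were called higher and lower were 11.4% and 21.7% against CON, and 10.2% and 20.2% against MAL. Ciita, the class II transactivator and a relative of Nlrc5, was lower on the log2 scale, at -1.89 ± 0.46 against CON (adjusted p = 0.00325) and -2.55 ± 0.44 against MAL (adjusted p = 3.15e-04), by edgeR with TMM. The class II list genes H2-DMa and H2-Oa were higher against CON by 0.95 ± 0.17 (adjusted p = 4.28e-04) and 0.79 ± 0.18 (adjusted p = 0.00232).

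Of 11 genes listed as class I receptors, whose binding to class I molecules was not examined here, 10 had a row of counts. Of these, 6 passed the filter on low counts. In each MAL-BG comparison, 2 of the 6 were called higher and 1 lower. Of all genes tested, 11.4% were called higher and 21.7% lower against CON, and 10.2% and 20.2% against MAL. The natural killer receptor chains Klrd1 and Klrc1 were higher against CON by 0.96 ± 0.20 (adjusted p = 0.00129) and 1.58 ± 0.47 (adjusted p = 0.0122), beside summed lymphocyte markers of 118 to 246 CPM in MAL-BG and 50.8 to 84.3 CPM in CON. The inhibitory receptor Lilrb4a was lower, at -1.58 ± 0.30 (adjusted p = 6.29e-04). The part of the lymphocyte content in these values was not tested.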
